A study of Mus musculus with 2 samples.

Results

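Sarcomere and cardiac contraction genes are described here in dissected mitral valve leaflets: 34 genes of the 32285 listed in the files, chosen by symbol as components of the contractile apparatus, its calcium store and its energy supply. All 34 symbols were found in both libraries. The tissue came from E17.5 mouse embryos, near the end of gestation, and was measured by droplet single-cell RNA sequencing of 3′ ends. There was 1 control library from wild type embryos and 1 mutant library from embryos that carried Nfatc1-Cre and Dicer loxp/loxp, each made from 3-4 pooled hearts. In both, leaflets were digested with 0.05% trypsin and cells stained with 7-AAD, a dye that marks dead cells, were used in a viability sort. Nfatc1-Cre acts in the endocardial lineage, which lines the heart and gives rise to valve cells, so heart muscle cells are not its main target. The label of the control group names no Cre allele and no floxed allele. Since each genotype is a single library, genotypes could not be tested against each other and no p-value is given. Genotype, pool and library preparation cannot be told apart, and every interval below is a 95% interval for counting error only.

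Heart muscle contracts when myosin heads of the thick filament pull on actin of the thin filament within the sarcomere, which is bounded by Z discs. Calcium released from the sarcoplasmic reticulum binds troponin C and moves tropomyosin off the myosin sites, and a calcium pump then refills the store. Atrial and ventricular muscle use different myosin heavy and light chains, and muscle exchanges some fetal isoforms for adult ones around birth. DICER1 cuts microRNA precursors into mature microRNAs, and a family of these lies within myosin heavy chain genes.

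The microRNAs carried by the myosin genes are shown because 2 of their hosts, Myh6 and Myh7, are members and because their maturation needs the enzyme that was targeted. Mature microRNAs were not measured here. By the RefSeq sequences and the GENCODE annotation, both on GRCm38, miR-208a-3p (chr14:54949072-54949093, minus strand) lies in an intron of Myh6. MiR-208b-3p (chr14:54975710-54975731, minus strand) lies in an intron of Myh7, and miR-499-5p (chr2:155622893-155622913, plus strand) in an intron of Myh7b, which is no member and stood at 23.8 CPM in control and 31.7 in mutant cardiomyocyte-like cells (UMIs of the gene per 1000000 UMIs of the class). The seeds, bases 2 to 8, are in capitals. MiR-208a-3p and miR-208b-3p share the seed UAAGACG, and miR-499-5p has UAAGACU.
miR-208a-3p: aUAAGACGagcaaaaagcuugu
miR-208b-3p: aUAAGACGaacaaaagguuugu
miR-499-5p: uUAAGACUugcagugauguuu

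RefSeq promoters of GRCm38.p6, each 300 bases from 250 before to 50 after a start given by RefSeq, were found for 29 of the 34 members. That start need not be the outer end of the gene in GENCODE. The CArG box, the site of serum response factor, was searched on both strands and occurred in 6 of these 29 members (20.7%) and in 1.81% of the 27018 genes with a promoter. The MEF2 site, the site of the MEF2 factors, occurred in 4 members (13.8%) and in 2.16% of all genes. No member held both. Of the shorter motifs, on both strands, CATTCC occurred in 9 members (31.0%, all genes 16.6%), AGATAA in 6 (20.7%, all genes 12.7%), TATAAA in 4 (13.8%, all genes 15.7%) and CANNTG in 26 (89.7%, all genes 74.99%). A match is a description of the letters and not a measured site. The 6 CArG boxes are shown in capitals with 10 bases on each side, on the strand of the gene. They occur in these promoters of an atrial light chain (Myl7) and a ventricular one (Myl3) alike. They come from chr11:5898824-5898853 (Myl7, minus strand), chr9:110763583-110763612 (Myl3, plus), chr2:114052903-114052932 (Actc1, minus), chr14:34588697-34588726 (Ldb3, minus), chr17:71019448-71019477 (Myom1, plus) and chr2:17462999-17463028 (Nebl, minus). Some of these boxes lie inside the gene as GENCODE places it: Myl3 (chr9:110741861-110769798), Actc1 (chr2:114047282-114053548), Myom1 (chr17:71002633-71126856) and Nebl (chr2:17343909-17731464).
Myl7: ccattcctctCCTTATTTGGgcctctgggt
Myl3: gagccaatgcCCTTTTATGGccctgtccct
Actc1: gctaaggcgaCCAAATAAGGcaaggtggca
Ldb3: gggttacagtCCATTTATGGgcgcagcaag
Myom1: gccttcctggCCATAAAAGGctggctgtgg
Nebl: gctcccatctCCTAAATTGGctggaaatgc

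The control library held 10347 kept cells with a median of 5671 UMIs and the mutant library 6183 with a median of 9488, so the mutant cells held more UMIs each. Between them the libraries shared 19 barcodes, 11 of them among kept cells. Cells were clustered without the 34 members and named from 14 muscle genes that are no members, such as Nkx2-5 and Hspb7, so the members did not choose the cells. Cardiomyocyte-like cells formed cluster 10, with 14 of these markers detected, and cluster 16, with 10. They numbered 448 in the control library (4.33% of kept cells, 3.95 to 4.74) and 347 in the mutant library (5.61%, 5.05 to 6.22), with medians of 10470.5 and 16605 UMIs. Sex-linked transcripts put 358 control cells down as female-type, 0 as male-type and 90 as open, while the mutant numbers were 120, 140 and 87. Dicer1 itself, the targeted gene, stood in these cells at 51.2 CPM (44.7 to 58.3) in the control library and 45.2 (39.7 to 51.2) in the mutant library, a log2 ratio of mutant over control of -0.18 (-0.45 to 0.09).

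The members made up 10.2% of all UMIs of cardiomyocyte-like cells in the control library and 10.7% in the mutant library. Since 1 UMI stands for 1 captured 3′ end, levels are compared between genes in CPM without a length scaling. The highest level belonged to Tnnt2, cardiac troponin T, which anchors the troponin complex to tropomyosin, at 13373 CPM in the control and 13249 in the mutant library. Myl2, the ventricular regulatory light chain, followed at 11917 and 13943 CPM, and Actc1, cardiac actin, at 11781 and 11399. These 3 genes differed in order between the libraries, with Myl2 above both others in the mutant library. Myl3, the ventricular essential light chain, stood at 9704 and 10122 CPM, Tpm1, tropomyosin, at 9589 and 9008, and Ttn, the titin spring that spans from Z disc to M band, at 7934 and 7915.

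Below these came Myh7, the slow or beta myosin heavy chain, at 6396 CPM in the control and 7815 in the mutant library. Tnnc1, the calcium sensor troponin C, stood at 5335 and 5054 CPM. The troponin I genes were close to each other, with the fetal Tnni1 at 3791 and 3996 CPM and the adult cardiac Tnni3 at 3117 and 3446. Pln, phospholamban, which restrains the calcium pump, was at 2221 and 2514 CPM, and Ckm, muscle creatine kinase, at 1980 and 2425. The other members lay between 75.7 and 2327 CPM in the control library, except Myom2, an M-band protein, at 7.70 CPM. Actc1, Tnnt2 and Tpm1 were detected in 100% of the cells of either library, and Myom2 in 5.80% of control and 18.2% of mutant cells. Those shares also reflect the higher UMI totals of the mutant cells. Over cells of at least 2000 UMIs, each thinned to 2000, Myom2 was found in 1.51% and 3.87%. Shares of cells with a UMI did not simply follow the level: Ttn, for all its UMIs, was found in 92.2% of control cells, fewer than Nebl (96.0%) or Csrp3 (100%).

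**Figure D1:**
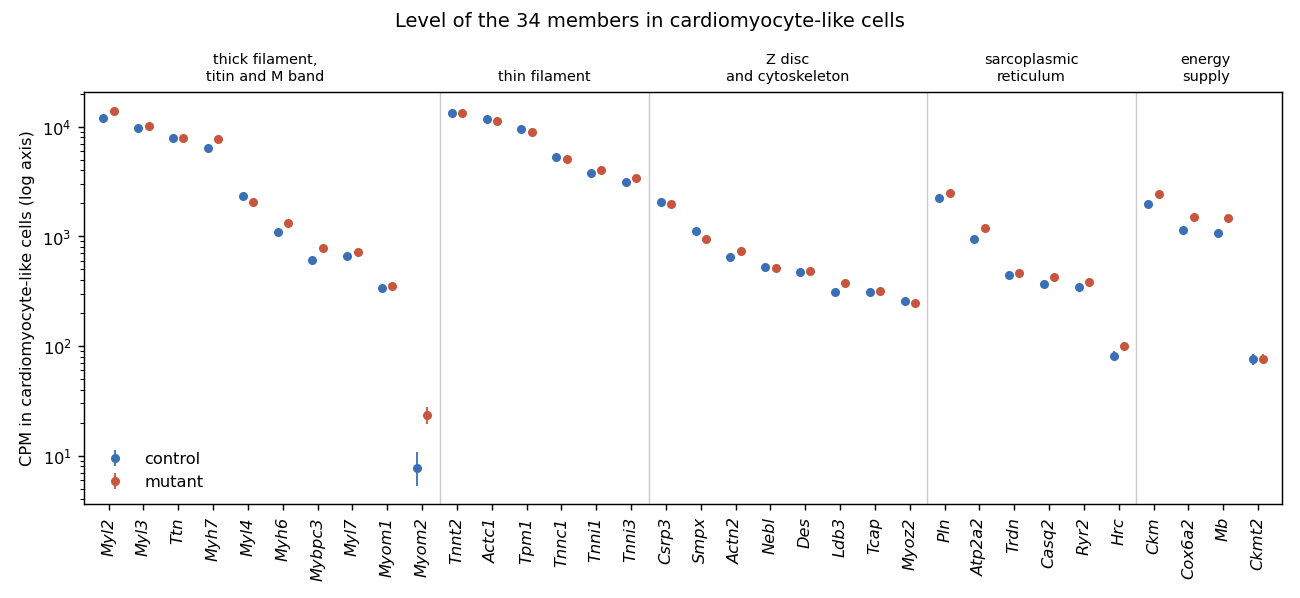
Level of each member in cardiomyocyte-like cells, in CPM on a log axis, for the control (blue) and the mutant (red) library, grouped by role; bars are 95% Poisson intervals for counting error. From Myom2 at 7.70 CPM to Tnnt2 at 13373 CPM in the control library, the points of both libraries lie close together for each gene except Myom2.

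Mutant and control cardiomyocyte-like cells held the members at similar levels. Of the 33 members with a mean of at least 50 CPM, 0 were at least 1.5-fold higher in the mutant library, against 0.239% of the 2510 genes at that level, and 0 were at least 1.5-fold lower, against 0.717%. At 2-fold the background was 0.0398% higher and 0.12% lower, and again 0 members passed. Their median log2 ratio was 0.08, beside -0.05 over all 2510 genes. For 18 members the interval lay above 0, against 11.8% of all genes, and for 6 it lay below, against 24.4%. An interval narrows as UMIs rise, and members and all genes were not matched for level in this comparison. Among female-type cells of both libraries the median was 0.18, and with the male-type and open mutant cells against all control cells it was 0.05. The make-up of the cells and their quality also differed between the libraries. Sub-cluster 0, led by Nppb, Apoe and Nppa, held 31.9% (27.6 to 36.5) of control and 42.4% (37.1 to 47.8) of mutant cardiomyocyte-like cells. The sub-clusters led by cell cycle genes held fewer mutant cells, with 22.8% and 15.9% in sub-cluster 1, 11.8% and 9.22% in sub-cluster 4 and 8.48% and 6.34% in sub-cluster 5. With the same sub-cluster weights in both libraries the median of the members was 0.05. The median mitochondrial share was 8.82% in control and 11.4% in mutant cells. Its part in the ratios below was not tested on its own, since the stricter filter given there changes other limits too.

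The energy supply genes had the highest median among the roles, 0.34 over 4 genes. Mb, myoglobin, which stores oxygen (chr15:77015487-77050670, minus strand), stood at 1069 CPM (1039 to 1100) in the control and 1462 (1430 to 1494) in the mutant library, a log2 ratio of 0.45 (0.40 to 0.50), the highest of the measured members. Cox6a2, the heart and muscle form of a cytochrome c oxidase subunit, followed with 1151 and 1510 CPM and 0.39 (0.34 to 0.44). For Ckm the ratio was 0.29, and for Ckmt2, the mitochondrial creatine kinase, 0.02 (-0.19 to 0.23). Across 18 alternative settings the ratio of Mb lay between 0.21 and 0.57, that of Cox6a2 between 0.25 and 0.45 and that of Ckm between 0.22 and 0.34. Other muscle energy genes were described beside these: of 15 measured genes of a list of 16, 9 had an interval above 0 and 0 below, with a median of 0.12, and Cox8b (0.47), Eno3 (0.40), Cpt1b (0.35) and Cox7a1 (0.31) were furthest from 0. None of these 15 reached 1.5-fold.

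Genes of the sarcoplasmic reticulum had a median of 0.19, and 5 of the 6 had an interval above 0. Atp2a2, the calcium pump SERCA2, was at 952 CPM in the control and 1200 in the mutant library (log2 ratio 0.33, 0.28 to 0.39), and Hrc, a calcium-binding protein of the store, at 81.1 and 100 (0.31, 0.11 to 0.50). Casq2, the calsequestrin that buffers stored calcium, had a ratio of 0.21, Pln 0.18 and Ryr2, the release channel, 0.17. For Trdn, triadin, which ties Casq2 to Ryr2, the interval held 0 (0.05, -0.03 to 0.14). With a stricter cell filter, which keeps only cells under 10% mitochondrial UMIs and also raises the limits on genes and UMIs, the ratio of Casq2 was -0.13. Of 9 measured genes among 18 others of calcium handling, 4 had an interval above 0 and 1 below, and Cacna1c, the L-type calcium channel, had the largest ratio, 0.40, followed by Asph (0.28), Calr (0.21) and Ppp1r1a (-0.17).

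In the thick filament, titin and M band, 6 of 9 measured members had an interval above 0 and 1 below, with a median of 0.13. Mybpc3, myosin binding protein C, had the largest ratio, 0.36 (0.29 to 0.43), at 614 and 786 CPM. Myh7 and Myh6, the beta and alpha heavy chains, both stood higher, at 0.29 and 0.27, and Myl2 at 0.23. Myl4, the atrial and fetal essential light chain, went the other way, with 2327 CPM in the control and 2077 in the mutant library (-0.16, -0.20 to -0.13), but at 0.12 among female-type cells. Myl7, the atrial regulatory light chain, had a ratio of 0.13, which was 0.37 in ventricular-type cells, 0.46 among female-type cells and -0.11 under the stricter filter. Myom2, below the level set for the count, had 34 UMIs in the control and 128 in the mutant library, 7.70 and 23.6 CPM, a log2 ratio of 1.60 (1.06 to 2.21).

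Thin filament genes had a median of -0.03, with 2 intervals above 0 and 3 below among 6. The 3 below were Tpm1 (-0.09), Tnnc1 (-0.08) and Actc1 (-0.05), all close to 0, and the 2 above were Tnni3 (0.15) and Tnni1 (0.08). The Z disc and cytoskeleton genes had a median of -0.02. Smpx, a small muscle protein of the costamere, had the lowest ratio of all measured members, -0.23 (-0.28 to -0.17), with 1119 CPM in the control and 958 in the mutant library. Csrp3, muscle LIM protein, stood at -0.09, while Ldb3 (0.27), which binds alpha-actinin, and Actn2 (0.19), the alpha-actinin that cross-links actin in the Z disc, were higher. Among female-type cells Tpm1 (0.03), Actc1 (0.0040) and Csrp3 (0.06) had the other sign.

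**Figure D2:**
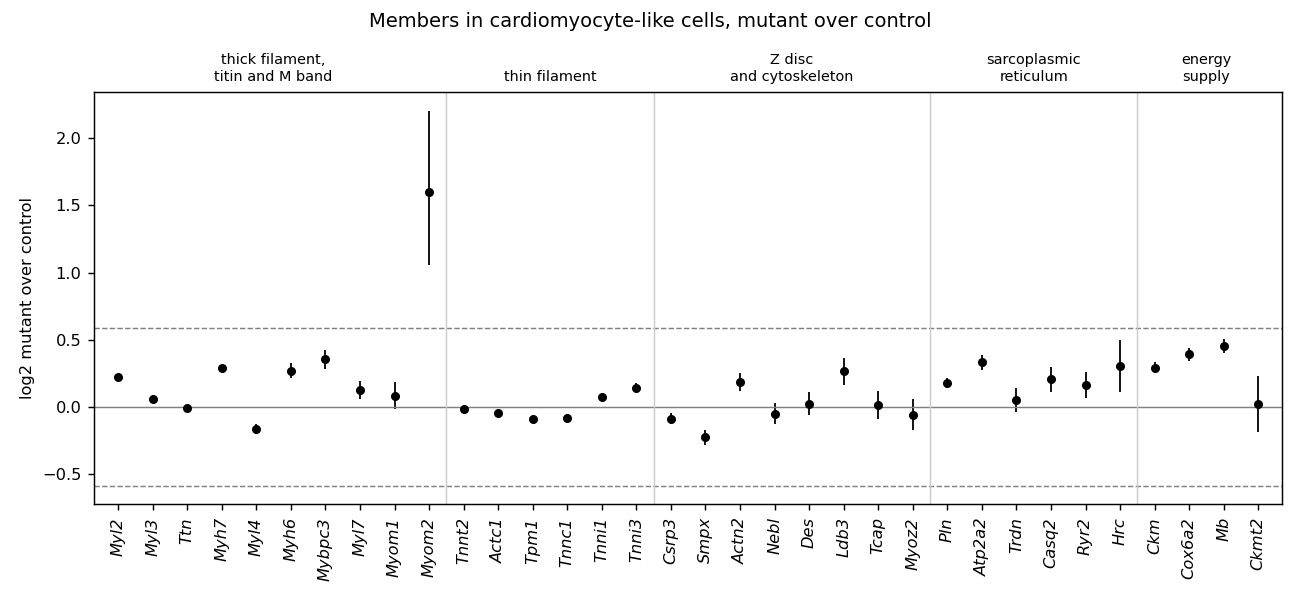
Log2 ratio of mutant over control CPM of each member in cardiomyocyte-like cells, by role, with 95% intervals for counting error; dashed lines mark 1.5-fold. All points but that of Myom2, at 1.60, lie between the dashed lines, and 3 of the 4 energy supply genes lie near 0.3 to 0.5.

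Lists beside the members were described the same way. Of 20 measured genes among 26 other sarcomere and Z disc genes, 10 had an interval above 0 and 2 below, with a median of 0.12, and Flnc (0.36), Fhl2 (0.25), Xirp1 (0.23) and Trim63 (0.20) were furthest from 0. Of 12 measured cardiac transcription factors among 15, 2 had an interval above 0 and 0 below, and the largest ratios were those of Mef2d (0.45), Hand2 (0.20), Myocd (0.18) and Hey2 (0.18). Contractile genes of skeletal type were mostly scarce, with 3 of 17 measured, and Acta1, skeletal actin, stood at 36.9 CPM in the control and 84.2 in the mutant library, a log2 ratio of 1.19 (0.93 to 1.46). With the same sub-cluster weights in both libraries it was 1.08, within sub-cluster 0, which Acta1 helps to define, 1.12 (0.77 to 1.49) and in the other sub-clusters 0.996 (0.60 to 1.41), while Tnnt1 (-0.06) and Casq1 (-0.04) stood near 0. Smooth muscle type genes had a median of -0.35 over 6 measured of 12, with 4 intervals below 0, 0 above and 2 genes at least 1.5-fold lower: Tagln (-1.41) and Cnn1 (-0.59), with Acta2 at -0.40 and Myl9 at -0.29. Among the ion channel genes Gja1 was the 1 measured gene, at 0.24. Markers of other cells differed too in the cardiomyocyte-like sums: the 12 interstitial markers summed to 400 CPM in the control and 218 in the mutant library with 0 of them at 0 UMIs, and the 11 smooth muscle or pericyte markers, which include Acta2 and Tagln, to 1311 and 985, with 1 and 0 at 0 UMIs. In the cells they mark, these lists summed to 21190 and 21587 CPM and to 7142 and 8652 CPM. Their part in the ratios was not tested.

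Paralog pairs were compared as the share of 1 gene in the UMIs of both. Myh6 made up 14.6% (14.3 to 15.03) of the heavy chain pair in the control and 14.5% (14.2 to 14.8) in the mutant library, a difference of -0.15 percentage points (-0.64 to 0.34). Tnni3 made up 45.1% and 46.3% of the troponin I pair, a difference of 1.19 points (0.44 to 1.93). Myl7 made up 5.27% and 4.93% of the regulatory light chain pair with Myl2 (-0.33 points, -0.57 to -0.09), and Myl4 19.3% and 17.0% of the essential light chain pair with Myl3 (-2.32 points, -2.76 to -1.87). The light chain differences had the other sign among female-type cells, 1.08 points for Myl7 and 0.75 for Myl4. In ventricular-type cells Myl7 differed by 0.29 and Myl4 by -1.71 points. How reads shared by near-identical copies such as Myh6 and Myh7 were counted is not given in the sources used here.

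Chamber identity was assigned to each cardiomyocyte-like cell by genes that are no members. A cell with more UMIs of 9 atrial genes, such as Sln, Nr2f2 and Stard10, than of 9 ventricular genes, such as Irx4, Hey2 and Gja1, was called atrial-type, the opposite ventricular-type, and a tie open. This gave 16 atrial-type cells in the control (3.57%, 2.05 to 5.74) and 7 in the mutant library (2.02%, 0.81 to 4.11), 403 and 324 ventricular-type cells, and 29 and 16 open ones. The class is a range and not a cell type: 3 control and 1 mutant atrial-type cells, and 50 and 24 ventricular-type cells, lay within 2 UMIs of the cut. Nppa, which encodes the natriuretic peptide of atrial muscle and was not used in the division, went against the name, with 1 UMI in the control and 3 in the mutant atrial-type cells, against 3201 and 7547 UMIs in ventricular-type cells. Nppb had 0 UMIs in the atrial-type cells of either library.

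The myosin genes separated these cells. Myl7 (chr11:5896637-5898782, minus strand) ranged from 0 to 36257 CPM with a median of 14126 over the control atrial-type cells, and from 656 to 26577 with a median of 19432 over the mutant ones. In ventricular-type cells its median was 166 CPM in the control and 199 in the mutant library. Myl2 (chr5:122100951-122113472, plus strand) had medians of 186 and 339 CPM in atrial-type against 12070 and 14019 in ventricular-type cells. More UMIs of Myl7 than of Myl2 were held by 13 of 16 control and 6 of 7 mutant atrial-type cells, by 2 of 403 and 0 of 324 ventricular-type cells, and by 0 of 29 and 2 of 16 open cells. The 3 control and 1 mutant atrial-type cells that did not hold more Myl7 had Myl2 at 10714 to 20153 CPM. When a lead of at least 3 UMIs was asked for, the log2 ratio of Myl2 in atrial-type over ventricular-type cells moved from -1.83 to -5.96 in the control and from -3.36 to -5.59 in the mutant library.

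**Figure D3:**
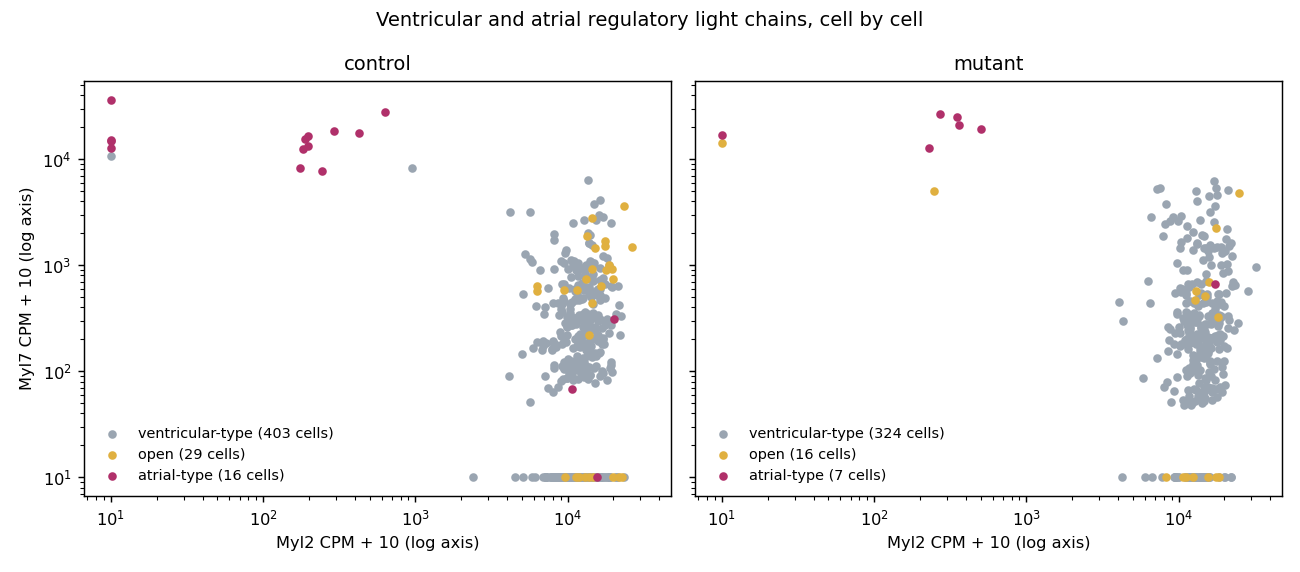
Myl2 against Myl7 in each cardiomyocyte-like cell, in CPM plus 10 on log axes, for the control (left) and the mutant (right) library, coloured by the chamber division that used neither gene. Most atrial-type cells, 13 of 16 and 6 of 7, sit at high Myl7 and low Myl2, away from the ventricular-type cells, and 2 open mutant cells sit with them.

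Other members followed the light chains. Myl4 had a median over cells of 8909 CPM in control and 8967 in mutant atrial-type cells, against 1700 and 1461 in ventricular-type cells. Myh6 stood at 4633 and 7408 against 690 and 741 CPM. On the ventricular side, Myl3 had medians of 46.5 and 522 CPM in atrial-type against 10014 and 10266 in ventricular-type cells, and Myh7 164 and 390 against 5948 and 6864. Summed over cells, 4 of 33 measured members were at least 2-fold higher in atrial-type cells of the control library (13.2% of all genes) and 5 of 33 in the mutant library (17.4%). Both counts were close to the share over all genes, so members as a set were not more often higher. The higher members were Myh6, Myl4, Myl7 and Tcap, which caps titin at the Z disc, with Myom2 added in the mutant library. At least 2-fold lower were 7 of 33 in each library (3.3% and 5.14% of all genes), of which 6 were the same: Myh7, Myl2, Myl3, Smpx, Pln and Mb. The control library added Ckmt2, on 3 UMIs in atrial-type cells (-1.31, -3.81 to 0.03), and the mutant library Ckm, at -1.33. The members measured in the mutant library included Myom2, on 8 UMIs in atrial-type cells (2.39, 1.06 to 3.33), and not Ckmt2, which had 0 UMIs there.

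Beyond the myosins, the log2 ratio of Tcap was 1.08 (0.71 to 1.42) in the control and 1.11 (0.65 to 1.51) in the mutant library. Pln stood at -1.13 and -2.32, Smpx at -1.04 and -1.68 and Mb at -1.73 and -2.36. The thin filament members stayed within 2-fold, from -0.57 to 0.41 in the control and from -0.74 to 0.19 in the mutant library, with Tnnt2 the lowest and Tnni3 the highest in each. Genes of other lists, chosen after their values were seen, also differed: Tbx5, a transcription factor, had ratios of 2.69 and 2.55, Myl1 3.65 and 2.65 and Tnnt1, slow skeletal troponin T, 2.98 and 5.005. These values rest on 16 and 7 cells from pooled embryos.

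Within the ventricular-type cells, those of sub-cluster 2 stood apart. The cardiomyocyte-like cells were divided into 6 sub-clusters without the members, and sub-cluster 2, led by Sln, Igfbp5 and Fabp5, held 61 control and 50 mutant cells, of which 48 and 43 were ventricular-type. These ventricular-type cells held 0 UMIs of Sln, which is on the atrial list, so they share the sub-cluster without its first leading gene. In them, Mb was at 389 CPM against 1174 in the other ventricular-type cells of the control library and at 493 against 1614 in the mutant library, log2 differences of -1.59 (-1.81 to -1.38) and -1.71 (-1.87 to -1.55). Myl7 was higher, at 728 against 305 CPM and 937 against 387 (1.25 and 1.28), and Myl4 too (0.72 and 0.34). Myl2 hardly differed (-0.02 and -0.11). Ckm (-0.43 and -0.68) and Cox6a2 (-0.38 and -0.67) were lower, Csrp3 (0.71 and 0.35) and Myh6 (0.33 and 0.86) higher. Tcap stood at 0.45 in the control and 1.16 in the mutant library. Hcn4, the pacemaker channel, and Cacna1g, a T-type calcium channel, looked up after the cells were seen, had 9 and 18 UMIs in the control and 25 and 34 in the mutant cells of sub-cluster 2, log2 differences of 2.57 and 2.89 and of 3.68 and 2.34.

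Cluster 16, the smaller cardiomyocyte-like cluster with 71 control and 57 mutant cells, held the members in other proportions than cluster 10. Its cells had a median of 0.19% mitochondrial UMIs in the control and 0.15% in the mutant library, against 9.83% and 12.4% in cluster 10. Median depth was 3826 and 5714 UMIs against 10993 and 18094. Malat1, a nuclear RNA looked up for this reason, stood at 3040 and 3143 CPM against 16003 and 16136. Members made up 12.5% and 12.9% of the UMIs of cluster 16 and 10.1% and 10.6% of those of cluster 10.

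Of the members measured between these clusters, 8 of 32 in the control library and 9 of 33 in the mutant library were at least 2-fold lower in cluster 16, against 10% and 12.3% of all genes. In the sarcoplasmic reticulum 4 of 5 and 5 of 6 measured members were so. Atp2a2 stood at 1008 CPM in cluster 10 and 96.3 in cluster 16 of the control library, and at 1283 and 74.7 in the mutant library, log2 differences of -3.36 (-4.004 to -2.84) and -4.08 (-4.69 to -3.57). Casq2 differed by -3.81 and -3.45, Ryr2 by -2.48 and -2.90 and Trdn by -1.83 and -1.36. Hrc, with 3 and 5 UMIs in cluster 16, differed by -2.73 (-5.23 to -1.39) and -2.86 (-4.63 to -1.77). Pln, the small regulator of the pump, went the other way, at 0.20 and 0.41.

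Titin was lower still, with 8417 CPM in cluster 10 and 533 in cluster 16 of the control library, and 8483 and 264 in the mutant library, differences of -3.98 (-4.23 to -3.74) and -4.998 (-5.30 to -4.72). Myom1, which ties titin to myosin at the M band, differed by -3.89 and -2.79. The 6 thin filament members were all higher in cluster 16, by 0.40 to 0.72 in the control and 0.34 to 0.88 in the mutant library, and were also higher when mitochondrial UMIs were left out of the totals. Csrp3 stood at 0.87 and 0.70. The myosin genes split, with the light chains higher (Myl2 0.37 and 0.34) and the heavy chains lower (Myh7 -0.89 and -1.12, Myh6 -1.35 and -0.83). The part that low depth, mitochondrial content or Malat1 had in these differences was not tested. Without cluster 16 the median mutant over control ratio of the members was 0.09.

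**Figure D4:**
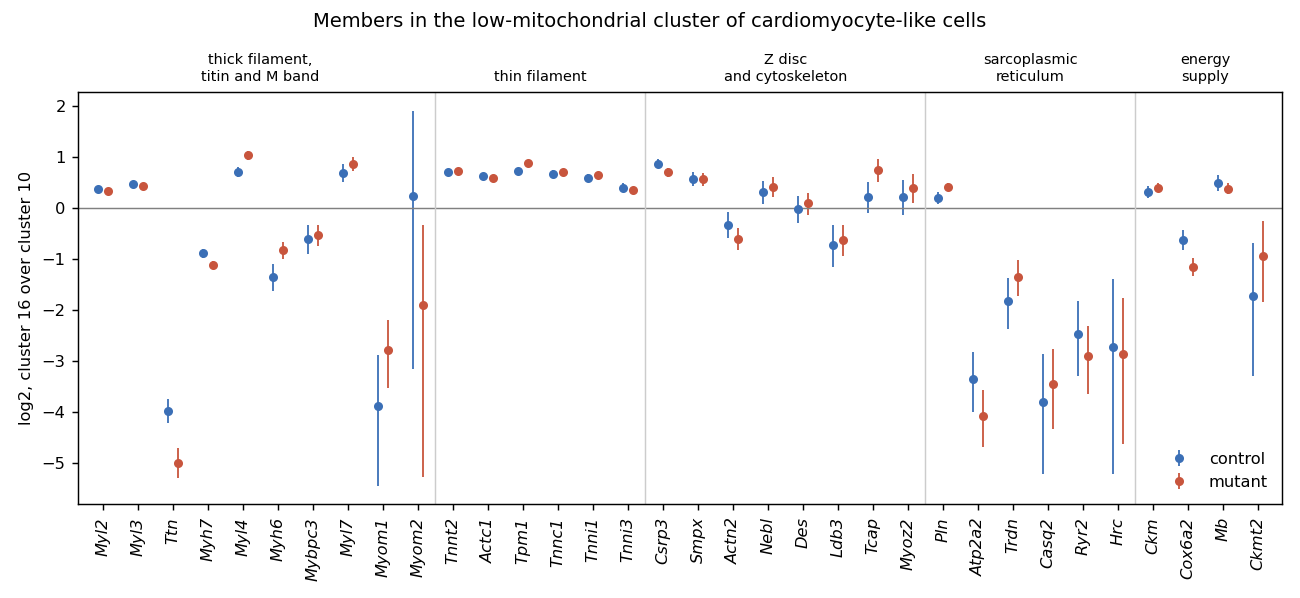
Log2 ratio of each member in cluster 16 over cluster 10 of the cardiomyocyte-like cells, for the control (blue) and the mutant (red) library, by role, with 95% intervals for counting error. The thin filament genes lie above 0 in both libraries, while Ttn, Myom1 and the sarcoplasmic reticulum genes other than Pln lie between -1.36 and -4.998.

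Outside the cardiomyocyte-like cells most members were detected at a low level. All 34 had a UMI in interstitial or fibroblast-like and endothelial-like cells of both libraries, while up to 11 were at 0 in the classes of fewer cells. Macrophage-like cells, which should lack contractile genes, held a UMI of Myl2 in 48.1% of control and 72.2% of mutant cells, at median depths of 4745 and 9258 UMIs. The shares were 25.2% and 29.5% over cells of at least 2000 UMIs, each thinned to 2000. Cardiomyocyte-like cells held a UMI of Myl2 in 98.9% and 99.4% at 10470.5 and 16605 UMIs, and in 97.7% and 98.5% when thinned. As a percent of its level in cardiomyocyte-like cells of the same library, the median member reached 1.82% and 1.26% in macrophage-like cells, 1.01% and 1.10% in interstitial or fibroblast-like cells, 1.04% and 0.91% in endothelial-like cells and 0.95% and 0.99% in smooth muscle or pericyte-like cells. Between 28 and 32 of the 34 members lay within 2-fold of that median in the first 3 of these classes, and 22 and 24 in the smooth muscle or pericyte-like class. In the control macrophage-like class, 1 cell with over 5% member UMIs held 26.0% of the class's member UMIs, and without it the median was 1.26%. Free RNA in the droplets can give all cell types a like low share, but the source of these UMIs was not tested. Members at this level, such as Myl2 in macrophage-like cells, are therefore not called expressed. For Ttn, 5 cells held 41.4% of its UMIs in control and 15.8% in mutant macrophage-like cells.

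Some members stood well above that level, and the classes differed in which. Myl7 in epicardial-like cells, named for Upk3b and Msln, was at 706 CPM (653 to 763) in the control and 847 (775 to 925) in the mutant library, 107% and 117% of its level in cardiomyocyte-like cells. Most of the latter, 403 of 448 and 324 of 347, were ventricular-type, and the atrial-type medians of Myl7 given above were far higher. Myl7 was detected in 84.0% of the 125 control and 95.6% of the 45 mutant epicardial-like cells, and the 5 cells with most held 15.6% and 32.7% of its UMIs. In macrophage-like cells it was found in 4.97% and 6.67%. Tnnt2 in epicardial-like cells was at 506 and 592 CPM, 3.79% and 4.47% of the cardiomyocyte level, and Tnni1 at 3.83% and 3.18%, while their partners Tnnc1 (0.39% and 0.89%) and Tnni3 (0.63% and 1.16%) were near the class medians of 0.73% and 1.06%. Des, the muscle intermediate filament desmin, reached 15.8% and 11.4% there.

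Smooth muscle or pericyte-like cells differed in other genes. Hrc reached 25.7 and 31.1 CPM, 31.6% (24.2 to 40.6) and 31.0% (25.3 to 37.7) of its cardiomyocyte level, and Casq2 26.5 and 54.8 CPM, 7.24% and 13.0%. Des stood at 10.5% and 10.8% and Atp2a2 at 17.6% and 15.4%. Myom1 (7.77% and 9.26%) and Tpm1 (7.78% and 8.43%), chosen after their values were seen, were also high. Tpm1 was not particular to this class, at 5.70% and 5.95% in interstitial or fibroblast-like and 6.02% and 5.07% in epicardial-like cells. It stood at 2.82% and 2.90% in endothelial-like cells. Myl7, in contrast, was at 0.44% and 1.32% in smooth muscle or pericyte-like cells. Ryr2, the channel that Casq2 and Trdn regulate in heart muscle, stood at 1.84% and 0.48%, and Trdn at 0.85% and 1.06%.

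Atp2a2, the pump that most cells use, lay between 7.45% and 17.6% of its cardiomyocyte level in the classes of over 100 cells in both libraries, at 89.4 to 184 CPM. Nebl, nebulette, a Z disc protein, reached 13.5% (8.0 to 21.3) and 10.3% (4.7 to 19.6) in melanocyte-like cells, on 18 and 9 UMIs. Ldb3, looked up after its values were seen, reached 39.7 CPM (35.0 to 44.8) and 34.02 (27.7 to 41.3) in cluster 2, an endothelial-like cluster led by Plvap and Npr3, in 14.5% of 1202 and 18.5% of 287 cells, against 3.70 and 4.16 CPM in the endothelial-like cluster 1. Myl7 stood in cluster 7, an interstitial-like cluster led by Dpep1 and Sfrp2, at 48.1 CPM in the control and 119 in the mutant library, but 5 of 340 mutant cells held 72.9% of those UMIs.

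**Figure D5:**
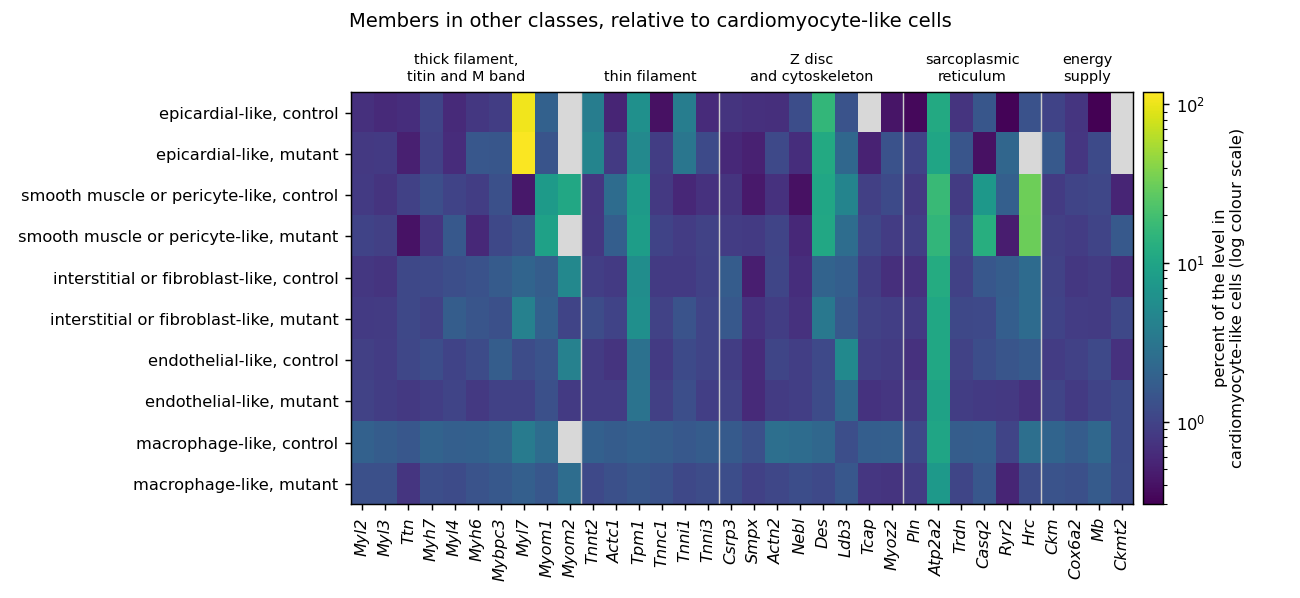
Level of each member in 5 other classes as a percent of its level in cardiomyocyte-like cells of the same library, on a log colour scale; grey marks members with 0 UMIs. Most fields are near 1%, and Myl7 in epicardial-like cells (107% and 117%), Hrc in smooth muscle or pericyte-like cells (31.6% and 31.0%) and Atp2a2 in all 5 classes stand out.

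Between genotypes, the summed level of the members outside cardiomyocyte-like cells was 1528 CPM in the control and 1712 in the mutant library in interstitial or fibroblast-like cells, a log2 ratio of 0.16 (0.14 to 0.19). It was 1249 and 1270 CPM in endothelial-like cells (0.02) and 2020 and 2059 in smooth muscle or pericyte-like cells (0.03). In macrophage-like cells the sums were 1925 and 1399 CPM (-0.46), and without the control cell with over 5% member UMIs the control sum was 1434. Members with a mean of at least 50 CPM and at least 1.5-fold apart numbered 0 of 8 in interstitial or fibroblast-like cells (1.62% of all genes higher, 0.81% lower) and 0 of 8 in endothelial-like cells (1.04% higher, 1.74% lower). In smooth muscle or pericyte-like cells 0 of 9 were higher and 1 lower (0.893% and 0.246% of all genes), and in macrophage-like cells 0 of 10 were higher and 2 lower (0.756% and 0.888%). Without cells of over 5% member UMIs, 1 of them in the control macrophage-like class, the macrophage-like count was 0 higher and 0 lower of 9. There Ttn had stood at 122 and 59.6 CPM (-1.03) and Tnnt2 at -0.75, and without that cell Ttn was at 89.1 and 59.6 (-0.58, -0.87 to -0.29) and Tnnt2 at -0.12 (-0.32 to 0.08). The lower member in smooth muscle or pericyte-like cells was Ttn, with 75.7 CPM in the control and 32.02 in the mutant library (-1.24), but 1 control cell held 93 of its 180 control UMIs. Titin UMIs were bunched in other classes too, where 5 cells held 28.0% of them in control and 54.2% in mutant interstitial or fibroblast-like cells. At 2000 UMIs per cell, a Ttn UMI was found in a lower share of mutant cells in all 4 large classes: 8.14% and 6.56% of smooth muscle or pericyte-like, 14.2% and 11.1% of macrophage-like, 10.2% and 6.84% of endothelial-like and 9.18% and 6.39% of interstitial or fibroblast-like cells. The interstitial or fibroblast-like CPM did not differ in the same way (87.2 and 87.2). The unthinned shares ran from 19.6% to 34.5%, at greater depth in the mutant library. The smaller classes, of 21 to 125 cells, had sums of 977 and 1155 CPM in lymphatic endothelial-like (0.24, 0.0058 to 0.48) and 2605 and 2890 in epicardial-like cells (0.15, 0.06 to 0.24). The sums were 1074 and 1048 in other leukocyte-like (-0.04) and 1144 and 1123 in melanocyte-like cells (-0.03). Of members with a mean of at least 50 CPM, 2 of 8 were at least 1.5-fold higher and 0 lower in lymphatic endothelial-like cells. In other leukocyte-like cells 1 of 8 was higher and 1 lower, and in epicardial-like cells 0 of 10 were higher and 0 lower. In melanocyte-like cells 0 of 9 were higher and 1 lower. These counts rest on few cells, and the share over all genes is not given for these classes. Ldb3, under that level, was at 16.03 CPM in the control and 8.70 in the mutant endothelial-like cells (-0.88, -1.16 to -0.61), and cluster 2 held 1202 of the 3476 control and 287 of the 2333 mutant cells of the class. Within cluster 2 its level was 39.7 and 34.02 CPM, with overlapping intervals.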

How the data were processed

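The authors deposited raw UMI counts per gene and barcode, whole numbers per the file headers. Cell Ranger 5.0.0 and mm10 are named by the submitters' processing notes. Counting options and annotation release are not given in the sources used here. Barcodes were kept with at least 500 genes, 1000 UMIs and under 20% mitochondrial UMIs, and doublets called by the Scrublet method of scanpy 1.11.5 (3.83% and 3.44%) were removed, so some doublets may remain. Clustering left out the members and used 2000 variable genes, 30 principal components, 15 neighbours and Leiden (leidenalg 0.10.2) at resolution 0.8, and the 21 clusters were named from fixed markers. Unnamed clusters held 14.7% of control and 19.2% of mutant cells. Within a library, the counts of a class were added up and divided by the class total (CPM, with Poisson intervals). Ratios had 0.5 counts added and exact conditional Poisson intervals, and shares had Clopper-Pearson intervals. Chamber classes were set without members. The ratio and its interval were tested on simulated Poisson counts, which hold no variation between cells or libraries. Coordinates are those of GENCODE M21 (GRCm38). Members, lists and named genes were chosen with earlier results of these data known. The genes named are the 12 highest members, the 3 highest and 3 lowest ratios, the paralog pairs, the 6 members highest outside muscle and up to 4 genes per further list. Alternatives were other cell filters, doublets kept, other clustering, female-type cells, scaling, level limits, counts added, cell means and thinning.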

Additional observations from a re-analysis of the deposited data

Results flagged for a closer look

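Barcodes over the mitochondrial limit of 20% belong to no comparison above. Yet they held 12.3% of all member UMIs of the control library (84513 UMIs in 1462 barcodes) and 15.4% of those of the mutant library (134581 UMIs in 1387 barcodes). With a limit of 40%, 85 control and 87 mutant barcodes joined the cardiomyocyte-like clusters. Members made up 11.3% and 12.1% of their UMIs without mitochondrial ones, beside 11.3% and 12.1% in the kept cardiomyocyte-like cells.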

How the results depend on the processing

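No paired analysis was possible because each group is 1 library and the labels give no replicate numbers. No measured member was 1.5-fold apart under any setting tried, except 1, Myom2, with a mean of at least 10 CPM or no minimum. The cardiomyocyte-like share was 2.55% in the control and 2.54% in the mutant library with the stricter filter, and 5.05% and 6.66% with a mitochondrial limit of 40%. The median member ratio was 0.18 among female-type cells. The Myh6 share differed by 0.87 points among female-type cells and 0.75 as a mean over cells, the Tnni3 share by 0.34 with the stricter filter. The Myl7 share differed by -1.24 with the stricter filter, -0.019 with doublets kept, 1.08 among female-type cells, -0.59 as a mean over cells and 0.29 in ventricular-type cells. The Myl4 share differed by -1.62, 0.75, -1.82 and -1.71 with doublets kept, among female-type cells, as a mean over cells and in ventricular-type cells.

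The atrial-type over ventricular-type ratio of Myl2 was -2.42 in the mutant library with the stricter filter, -1.50 (control) and -2.38 (mutant) with doublets kept, -2.47 and -5.65 among female-type cells, and -5.96 and -5.59 with a lead of at least 3 UMIs. That lead, the restriction to ventricular-type cells, leaving out cluster 16, leaving out cells of over 5% member UMIs, equal sub-cluster weights and the male-type and open cells were chosen after seeing the data. When sub-cluster 2 stood in for the division, its share was 13.6% and 14.4% and the ratio -0.25 and -0.21. The summed member level in control macrophage-like cells was 1434 CPM with the stricter filter, 2102 with a limit of 40%, 2844 with doublets kept, 1555 at resolution 1.5, 1434 with the members left in the clustering, 1492 with a class set per cell, 2001 scaled without members and mitochondrial genes and 1667 thinned. In the mutant library it was 1548 with doublets kept, 1519 at resolution 1.5, 2217 with a class set per cell, 1458 scaled without members and mitochondrial genes and 1648 thinned. Without cells of over 5% member UMIs, 0 members were 1.5-fold lower in macrophage-like cells. The cause of these changes was not tested, other than the 1 control macrophage-like cell with over 5% member UMIs. Atrial-type values rest on few cells, and members under 50 CPM on few UMIs.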
